A study of Homo sapiens with 32 samples.

Results

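The 8 genes described here encode 4 chemokines of the CXC class (CXCL1, CXCL2, CXCL3 and CXCL8) and 4 interleukins (IL32, IL1A, IL1B and IL6). They are 8 of the 17788 rows of the deposited count table, found by matching Ensembl identifiers to GENCODE release 44 symbols. CXCL1 and IL32 were selected on the measured values themselves, that is, on how their counts moved with TGFβ1 in each genotype of these libraries. Their values are therefore given as a description, without a test. The other 6 were added as relatives of those genes with earlier results of these data known. All 8 passed the filter on low counts, which kept 14865 genes.

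RNA was sequenced from MCF10A, an immortalized human mammary epithelial cell line, and mRNA was read out as counts per gene. The genotypes compared are JUNB wild-type cells (WT, clones 27 and 2) and cells labelled JUNB knock-out (clones 1 and 65, called mut in the study and here). Each genotype is represented by a pair of single-cell-derived clones, all of MCF10A background, so a difference between genotypes rests on 2 clones against 2. The mut clones were made with CRISPR/Cas9 and carry an extended deletion inside JUNB, and a smaller JUNB polypeptide that TGFβ1 still induces remains in them, so they are not a complete loss of the protein. Both genotypes received solvent (BSA in PBS, labelled as time 0) or recombinant human TGFβ1 at 5 ng/ml for 6, 24 or 72 h. The medium of every group contained horse serum, EGF, hydrocortisone, cholera toxin and insulin. Hydrocortisone, a glucocorticoid, was thus present in solvent and TGFβ1 cultures alike. There are 8 groups of 4 libraries, namely 2 clones with 2 replications each. Per the study, the solvent cultures were kept in solvent for 72 h and every culture was harvested at the same time after seeding, so the groups differ in the length of exposure to TGFβ1 and not in time in culture.

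The libraries held between 39702412 and 54651906 counts. Levels are given as CPM, the count relative to the library's total count on the usual common scale, and 3 counts, the floor used here for a gene at zero, correspond to 0.0549 to 0.0756 CPM. Under solvent the mean level of JUNB itself was 97.6 CPM for WT and 112 CPM for mut libraries (log2 difference 0.10 ± 0.34 SE, adjusted p = 0.885), and a count over the whole gene does not check a deletion within it. JUNB overlaps an exon of HOOK2 on the other strand, and the library kit does not mark strand. All 9 basal mammary epithelial markers were above 1 CPM in every group, with sums between 12500 and 24430 CPM. Of 10 leukocyte markers 7 were in the table, and their sum was 34.0 to 51.8 CPM in all groups. The 3 above 1 CPM were CD14, CD68 and CSF1R. ITGAM was low, with at most 33 counts (0.719 CPM) in any library, and PTPRC, LYZ and CD3E had at most 6 counts. CD14 moved with both factors, from a mean of 14.8 to 2.92 CPM at 72 h in WT and from 25.7 to 9.66 CPM in mut cells. The sum of the 5 fibroblast markers in the table was between 40.5 and 136 CPM in WT solvent and between 170.2 and 470 CPM in WT 72 h libraries. In mut cells that sum went from 31.4 to 78.2 CPM under solvent to 218 to 301 CPM at 72 h. Most of it was COL6A3, with means of 52.4 and 295 CPM in WT and 31.0 and 204 CPM in mut cells under solvent and at 72 h. COL3A1 had at most 4 counts in any library. The sum of the 2 endothelial markers in the table was 2.94 to 15.1 CPM in WT and 13.1 to 27.0 CPM in mut libraries. This sum was nearly all KDR, since VWF had at most 6 counts in any library. The part of these shifts in the results below was not tested. In bulk RNA, fewer cells with a transcript and less transcript per cell cannot be told apart.

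CXC chemokines are small secreted proteins that guide leukocytes. CXCL1, CXCL2, CXCL3 and CXCL8 bind the receptor CXCR2, and CXCL8 also binds CXCR1, on neutrophils and on some epithelial cells. IL-1α and IL-1β, the products of IL1A and IL1B, signal through the receptor IL1R1 and the adaptor MYD88 to NF-κB, a transcription factor family that in turn drives CXC chemokine and IL6 transcription in many cell types. IL-6 signals through IL6R and IL6ST to STAT3, and IL32 is an inflammatory cytokine gene with no known rodent counterpart. JUNB is a subunit of AP-1, another factor with sites near many inflammatory genes.

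The 4 chemokine genes lie close together on chromosome 4 (GRCh38). CXCL8 occupies chr4:73740519-73743716 and CXCL1 chr4:73869393-73871308 on the plus strand. CXCL3 (chr4:74036589-74038807) and CXCL2 (chr4:74097040-74099196) lie on the minus strand. CXCL1, CXCL2 and CXCL3 are near copies of each other, with 321 coding bases each. The coding sequences were 93.5% identical between CXCL1 and CXCL2, 90.7% between CXCL1 and CXCL3 and 94.4% between CXCL2 and CXCL3. CXCL8 shared 50.3 to 52.8% with the 3 others. The longest run of bases in common between 2 of the canonical transcripts was 97 bases (CXCL2 and CXCL3), so no stretch as long as a 150-base read was identical. How reads that fall within common stretches were counted is not given in the sources used here, so levels of CXCL1, CXCL2 and CXCL3 carry that uncertainty. Of their 50-base stretches 5.26 to 10.1% occur in one of the other genes.

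The start regions are shown because several of these genes moved together, and the sequences let their promoters be compared. In RefSeq promoter sequences (GRCh38.p14, 250 bases before to 50 bases after each start), all 8 genes matched, with 10 promoters in all. A κB-type motif spelled GGANTTTCC, on either strand, was present in 6 of the 8 genes, and IL32 held it at 2 places in its first promoter. Of all 35116 promoters 1.64% held this motif. An AP-1 motif (TGANTCA, held by 7.71% of all promoters) was in the promoters of CXCL8 and IL1A. A C/EBP-type motif (TTGCNNAA, held by 10.5%) was in those of CXCL2, IL1B and IL6. The sequences below run 5′ to 3′ on the strand of the gene, and capitals mark the κB-type motif and, in CXCL8, also the AP-1 motif upstream of it.
CXCL1 (chr4:73869243-73869342, plus strand): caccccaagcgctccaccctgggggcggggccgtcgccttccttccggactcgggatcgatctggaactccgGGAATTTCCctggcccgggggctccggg
CXCL2 (chr4:74099246-74099345, minus strand): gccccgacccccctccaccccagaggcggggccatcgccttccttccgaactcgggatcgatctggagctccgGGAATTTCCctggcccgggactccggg
CXCL3 (chr4:74038748-74038777, minus strand): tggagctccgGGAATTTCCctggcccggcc
CXCL8 (chr4:73740419-73740518, plus strand): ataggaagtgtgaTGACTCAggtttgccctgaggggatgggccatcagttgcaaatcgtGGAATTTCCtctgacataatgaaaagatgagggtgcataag
IL6 (chr7:22727118-22727147, plus strand): atcaaatgtgGGATTTTCCcatgagtctca
IL32, first copy (chr16:3065295-3065324, plus strand): ctgtactcagGGAGTTTCCccagccagctg
IL32, second copy (chr16:3065325-3065354, plus strand): tcccgagtctGGACTTTCCctctgcccctc

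The 100-base windows span 150 to 51 bases before the start. The shorter ones hold 30 bases around the motif and are used where an annotated exon of the gene overlaps that window. Each 30-base stretch itself overlaps an annotated exon of its gene. The motif begins 78 bases before the start in CXCL1 and CXCL3, 77 in CXCL2, 91 in CXCL8 and 72 in IL6, and the letters are the same in the 4 chemokine genes. The AP-1 motif of CXCL8 begins 137 bases before the start. IL1A and IL1B hold no κB-type match in these windows. A match is a description of the letters, not of binding.

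Values below are given in the order clone 27 replications 1 and 2 and clone 2 replications 1 and 2 for WT, and clone 1 replications 1 and 2 and clone 65 replications 1 and 2 for mut. Differences are on the log2 scale with the SE of the fit, and a gene is called where its adjusted p is under 0.05 over all genes tested. Comparisons of 6, 24 and 72 h within a genotype share that genotype's 4 solvent libraries, and the comparisons of the genotypes use the same libraries again.

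**Figure D1:**
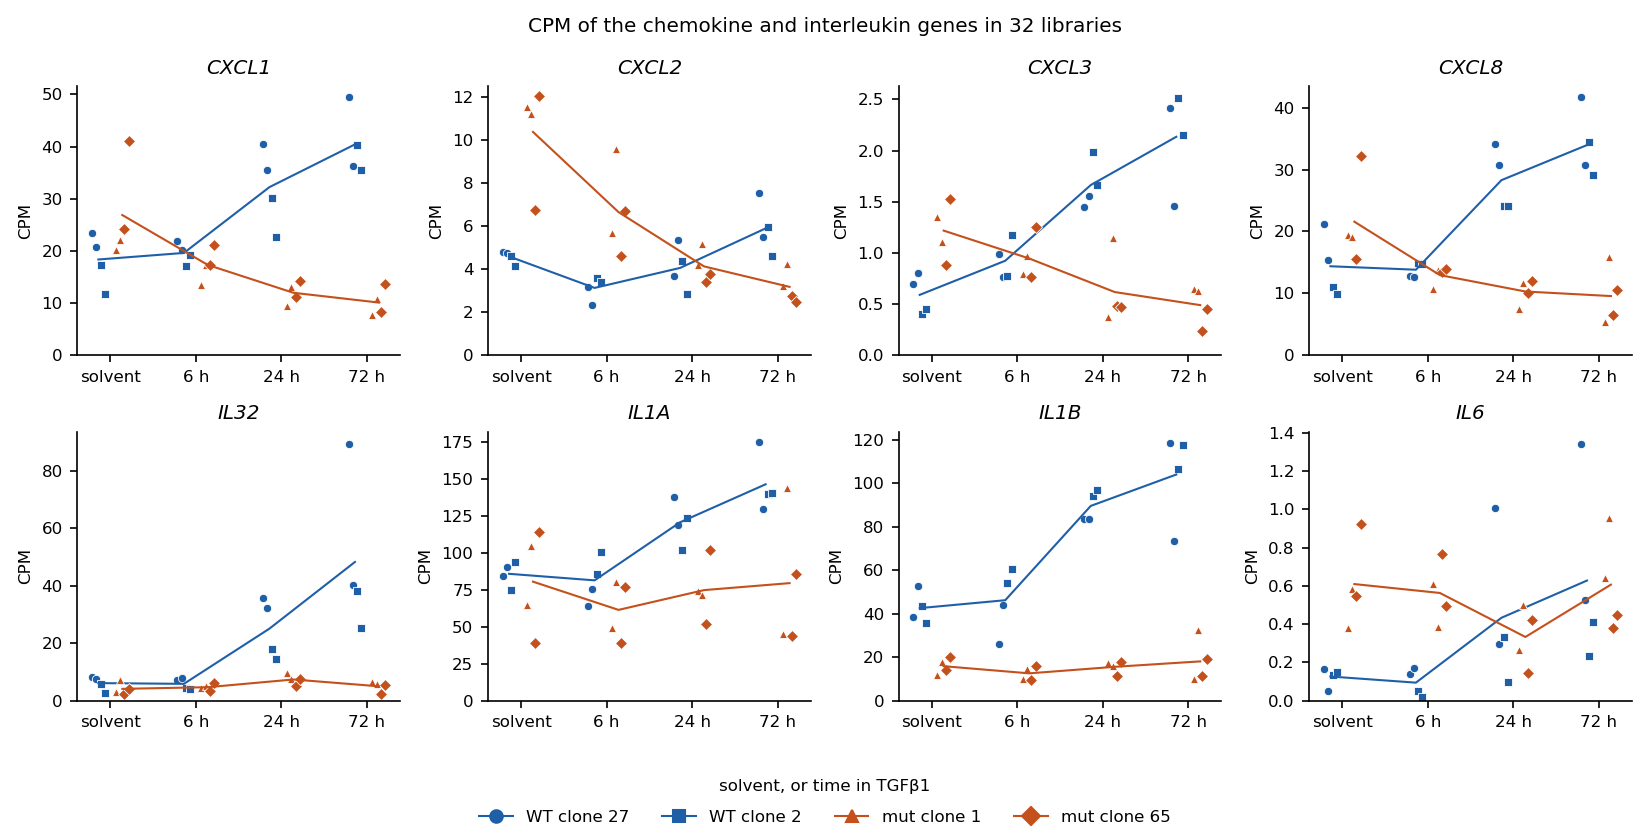
Level in CPM (y axis, linear, from 0) of the 8 genes in each of the 32 libraries, under solvent and after 6, 24 and 72 h of TGFβ1 (x axis). Each point is 1 library, its shape gives the clone, its colour the genotype (WT blue, mut orange), and the lines join group means of 4 libraries. CXCL1, CXCL3 and CXCL8 cross: from 24 h the WT libraries are above the mut libraries, whereas IL1B is lower in mut at every time.

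Under TGFβ1, the 2 genotypes went apart in the chemokine genes. CXCL3 and CXCL8 rose in WT cells and fell in mut cells, CXCL2 fell in mut cells and gave no call in WT cells, and the CXCL1 levels, which the choice of genes rests on, also went apart. By 72 h the group means of WT and mut cells were 40.4 and 10.1 CPM for CXCL1, 34.0 and 9.54 CPM for CXCL8 and 2.13 and 0.488 CPM for CXCL3.

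CXCL1 stood at 23.4, 20.7, 17.3 and 11.8 CPM in WT cells under solvent and at 49.5, 36.3, 40.3 and 35.4 CPM after 72 h of TGFβ1. In mut cells it stood at 20.1, 22.1, 24.2 and 41.0 CPM under solvent and at 7.64, 10.8, 8.16 and 13.6 CPM at 72 h. All WT 72 h libraries were above all WT solvent libraries, and all mut 72 h libraries were below all mut solvent libraries. The difference from solvent in WT cells was 0.13 ± 0.23 after 6 h and went to 0.83 ± 0.21 by 24 h and 1.16 ± 0.21 by 72 h. At the same times it was -0.59 ± 0.21, -1.14 ± 0.24 and -1.40 ± 0.24 in mut cells. Each of the 4 WT series (1 clone in 1 replication) was above its own solvent library at 24 and 72 h, and each of the 4 mut series was below its own at 6, 24 and 72 h. The changes differed by -2.56 ± 0.32 at 72 h. The 6 h values of WT cells, 17.1 to 21.8 CPM, lay within the solvent range.

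CXCL8, the neutrophil attractant also called interleukin 8, had the level pattern most like that of CXCL1. In WT cells its values were 21.2, 15.4, 11.1 and 9.80 CPM under solvent, 34.2, 30.8, 24.1 and 24.0 CPM at 24 h and 41.7, 30.7, 34.4 and 29.0 CPM at 72 h. In mut cells they were 19.4, 19.0, 15.5 and 32.3 CPM under solvent, 7.49, 11.6, 10.0 and 12.01 CPM at 24 h and 5.33, 15.8, 6.46 and 10.5 CPM at 72 h. The WT libraries at 24 and 72 h did not overlap those under solvent, and the second replication of mut clone 1 was the one mut library at 72 h that reached into the solvent range. CXCL8 rose in WT cells by 1.02 ± 0.24 at 24 h (adjusted p = 0.000600) and by 1.28 ± 0.23 at 72 h (adjusted p = 4.28e-05). In mut cells the difference was -1.05 ± 0.26 at 24 h (adjusted p = 0.00449) and -1.24 ± 0.26 at 72 h (adjusted p = 0.000879). At 6 h the mut difference of -0.69 ± 0.24 did not pass (adjusted p = 0.0787), whereas it did with the series as a block (adjusted p = 0.00846).

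CXCL3 was the least abundant of the 4 chemokine transcripts. WT cells had 0.692, 0.803, 0.405 and 0.453 CPM under solvent and 2.42, 1.46, 2.52 and 2.15 CPM at 72 h, from 18 to 33 and from 72 to 110 counts per library. Mut cells had 1.35, 1.10, 0.884 and 1.53 CPM under solvent and 0.643, 0.625, 0.237 and 0.447 CPM at 72 h. Neither pair of groups overlapped, and the direction was opposite in the 2 genotypes. CXCL3 rose in WT cells by 1.51 ± 0.32 at 24 h (adjusted p = 0.000195) and 1.85 ± 0.31 at 72 h (adjusted p = 1.29e-05). In mut cells it fell by 1.09 ± 0.33 at 24 h (adjusted p = 0.0165) and by 1.33 ± 0.34 at 72 h (adjusted p = 0.00435). The fall at 24 h was no longer called by edgeR (adjusted p = 0.0553), when the replications of a clone were summed (adjusted p = 0.0643), or without mut solvent replicate 65-2 or mut 24 h replicates 1-1 or 65-2 (adjusted p = 0.0523 to 0.0842).

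CXCL2 took another course. WT libraries were tightly grouped under solvent at 4.80, 4.77, 4.62 and 4.16 CPM, were lower at 6 h (3.16, 2.35, 3.56 and 3.41 CPM) and stood at 7.54, 5.48, 5.94 and 4.59 CPM at 72 h. In mut cells CXCL2 started higher, at 11.6, 11.2, 6.73 and 12.03 CPM, and went to 3.22, 4.22, 2.75 and 2.48 CPM at 72 h. All 4 mut solvent libraries were above all WT solvent libraries, and at 72 h all 4 were below all WT libraries. In mut cells CXCL2 fell by 0.68 ± 0.19 within 6 h (adjusted p = 0.0280), by 1.31 ± 0.22 within 24 h (adjusted p = 8.44e-05) and by 1.68 ± 0.23 within 72 h (adjusted p = 3.34e-06). The 6 h call was not made by edgeR or DESeq2, with summed replications, in a fit of the groups compared alone, or without mut solvent replicates 1-1, 1-2 or 65-2 or mut 6 h replicates 1-1, 65-1 or 65-2 (adjusted p = 0.0671 to 0.182). In WT cells the differences of the successive times from solvent, -0.58 ± 0.26, -0.21 ± 0.25 and 0.34 ± 0.23, did not pass (adjusted p = 0.140, 0.499 and 0.230). With the series as a block the WT difference at 6 h passed (adjusted p = 0.0292), with all 4 WT series below their solvent library.

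**Figure D2:**
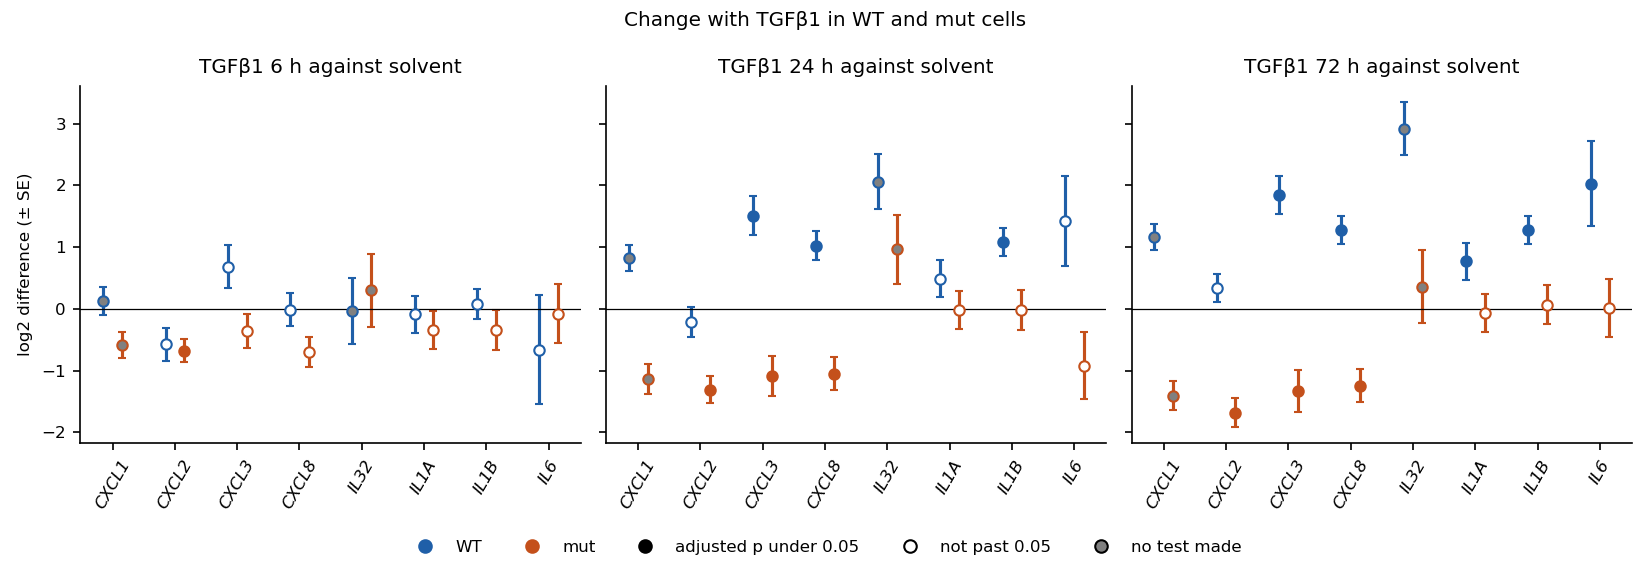
Log2 difference of each TGFβ1 time from solvent (y axis) for the 8 genes (x axis) in WT (blue) and mut (orange) cells, with SE bars of the fit over 32 libraries. Filled points passed an adjusted p of 0.05, open points did not, and grey points (CXCL1 and IL32) have no test. At 72 h CXCL3 and CXCL8 are called above zero in WT and below zero in mut, while IL1A, IL1B and IL6 are called in WT and lie near zero in mut.

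IL1A and IL1B rose in WT cells by 72 h and gave no call in mut cells. IL6 was likewise called in WT cells alone, but that call is a description, since IL6 was close to the floor under WT solvent. The log2 difference of IL32, which has no test, was the largest of the 8 genes in WT cells at 72 h. In mut cells IL1B remained near its low solvent level throughout.

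IL32 (chr16:3065297-3082192) stood at 8.28, 7.53, 5.79 and 2.77 CPM in WT cells under solvent, at 35.8, 32.3, 17.8 and 14.4 CPM at 24 h and at 89.3, 40.2, 38.2 and 25.4 CPM at 72 h. In mut cells the values were 3.07, 7.17, 2.19 and 3.96 CPM under solvent, 9.55, 7.44, 4.97 and 7.47 CPM at 24 h and 6.64, 5.79, 2.14 and 5.36 CPM at 72 h. WT values at 24 and 72 h did not overlap those under solvent, and mut values overlapped solvent at every time. The first replication of clone 27 was the highest library at 72 h, where the mean was 48.3 ± 28.1 CPM (SD, n = 4). Clone 27 had higher IL32 than clone 2 at each time, with means of 64.7 and 31.8 CPM at 72 h. The difference from solvent was 2.06 ± 0.44 at 24 h and 2.92 ± 0.43 at 72 h in WT cells, against 0.97 ± 0.56 and 0.36 ± 0.59 in mut cells. All 4 WT series were above solvent at both times. All 4 mut series were above solvent at 24 h, and 2 of 4 at 72 h. CXCL1 and IL32 thus differ in mut cells, where the 72 h libraries lay below all solvent libraries for CXCL1 and among them for IL32. The annotated gene RNU1-125P and an unnamed gene overlap IL32.

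IL1B (chr2:112829751-112836816) had values of 38.4, 52.8, 43.6 and 35.6 CPM under solvent, 83.5, 83.5, 94.3 and 97.2 CPM at 24 h and 118, 73.6, 106 and 118 CPM at 72 h in WT cells. In mut cells the ranges were 11.9 to 20.0 CPM under solvent, 11.2 to 17.7 CPM at 24 h and 9.86 to 32.3 CPM at 72 h. No mut library reached any WT library at the same time. IL1B rose in WT cells by 1.09 ± 0.23 at 24 h (adjusted p = 0.000213) and 1.28 ± 0.23 at 72 h (adjusted p = 3.08e-05). In mut cells the difference at 72 h was 0.07 ± 0.31 (adjusted p = 0.899), with 1 series above and 3 below solvent, and it was -0.24 without the series of the second replication of clone 1.

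IL1A (chr2:112773925-112784493) was the most abundant of the 8 genes per kilobase of exon, with 42.5 ± 4.06 CPM per kb in WT cells under solvent against 14.1 ± 2.51 for IL1B and 13.5 ± 3.69 for CXCL1 (SD, n = 4). In WT cells it was 84.6, 90.2, 74.8 and 93.5 CPM under solvent and 175, 130, 140 and 141 CPM at 72 h, and these groups did not overlap. IL1A rose by 0.77 ± 0.30 (adjusted p = 0.0317), and this call was lost without WT solvent replicate 27-1 or 2-1, WT 72 h replicate 27-1 or 2-2, or the series 27-2 (adjusted p = 0.0503 to 0.0827). At 24 h the difference of 0.49 ± 0.30 did not pass (adjusted p = 0.173), though it did with the series as a block (adjusted p = 0.0104) and the 24 h libraries were all above solvent. Mut values scattered from 38.9 to 114 CPM under solvent and from 43.8 to 144 CPM at 72 h. The first replication of each mut clone was the lower one under solvent and at 72 h.

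IL6 (chr7:22725884-22732002) was close to the floor. In WT cells under solvent and at 6 h no library had more than 8 counts. IL6 passed the filter on low counts through other groups, in which it was higher. Its differences from these WT groups are therefore to be read as a description, although they are kept in the counts of calls. WT libraries had 0.168, 0.0502, 0.135 and 0.151 CPM under solvent, 2 to 8 counts per library, and 1.34, 0.526, 0.233 and 0.411 CPM at 72 h. Mut libraries had 0.381, 0.584, 0.547 and 0.925 CPM under solvent and 0.643, 0.955, 0.380 and 0.447 CPM at 72 h. IL6 was called higher in WT cells at 72 h (2.03 ± 0.69, adjusted p = 0.0147), a call lost without WT 72 h replicate 27-1 or the series 27-2 (adjusted p = 0.0590 and 0.0698). The WT difference at 24 h, 1.43 ± 0.72, did not pass (adjusted p = 0.100), but did with the series as a block (adjusted p = 0.0108), by edgeR (adjusted p = 0.0113), by DESeq2 (adjusted p = 0.00667) and without WT 24 h replicate 2-2 (adjusted p = 0.0202). IL6 also overlaps an exon of STEAP1B on the other strand, and reads of the 2 cannot be separated in these libraries.

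Over the 6 tested genes, no call was made in WT cells at 6 h (1 had an unadjusted p under 0.05), 3 were called higher at 24 h and 5 at 72 h, and none was lower. The 5 include IL6, whose call is a description. In mut cells 1 was called lower at 6 h and 3 at each later time, and none was higher. The share of all genes called in the same comparisons was 17, 52.1 and 52.2% in WT and 7, 23.8 and 24.1% in mut cells. The 3 of 6 called in WT cells at 24 h is thus near the share of all genes. At 6 h in WT cells, edgeR and DESeq2 also called 0 of the 6, and the block by series called 1, beside 3844 of all 14865 genes. The median difference of all genes was -0.19 in WT and -0.09 in mut cells at 72 h, and 2061 genes were called higher and 5705 lower in WT cells. With composition factors (TMM) these were 3189 and 3459.

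Between genotypes, the genes differed already under solvent. In mut cells CXCL2 was higher by 1.14 ± 0.21 (adjusted p = 0.000429), CXCL3 by 1.06 ± 0.33 (adjusted p = 0.0305) and IL6 by 2.20 ± 0.68 (adjusted p = 0.0299). The IL6 value is to be read as a description, since IL6 did not pass the filter on low counts through the WT solvent libraries. IL1B was lower, -1.44 ± 0.28 (adjusted p = 0.000736), with means of 15.8 CPM in mut and 42.6 CPM in WT cells. CXCL8 at 0.59 ± 0.24 did not pass (adjusted p = 0.116), and CXCL1, with no test, differed by 0.53 ± 0.22 with overlapping groups. The CXCL3 call was lost with summed replications, in a fit of the 2 groups alone or without WT solvent replicate 2-1 or 2-2 or mut solvent replicate 1-1 or 65-2 (adjusted p = 0.0655 to 0.106). That of IL6 was lost with summed replications and without any 1 of the 4 WT solvent replicates, mut solvent replicate 65-2 or the series 27-2 (adjusted p = 0.0522 to 0.114).

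For CXCL2 and CXCL3 the called order of the genotypes turned with time, while IL1B was lower in mut cells throughout. At 6 h CXCL2 (1.04 ± 0.25, adjusted p = 0.00289) and IL6 (2.78 ± 0.74, adjusted p = 0.00760) were higher in mut cells and IL1B was lower (-1.85 ± 0.29, adjusted p = 3.18e-05). The limit on IL6 from the filter holds here too. At 24 h CXCL3 (-1.53 ± 0.32, adjusted p = 0.000380), CXCL8 (-1.48 ± 0.25, adjusted p = 4.88e-05) and IL1B (-2.54 ± 0.28, adjusted p = 5.23e-08) were lower. At 72 h all tested genes except IL6 were lower in mut cells. There IL1B differed by -2.65 ± 0.26 (adjusted p = 1.19e-08), CXCL3 by -2.12 ± 0.32 (adjusted p = 6.14e-06) and CXCL8 by -1.93 ± 0.25 (adjusted p = 9.00e-07). The differences of IL1A, -1.04 ± 0.30 (adjusted p = 0.00644), and CXCL2, -0.88 ± 0.25 (adjusted p = 0.00571), were smaller. CXCL1 and IL32, without a test, differed by -2.03 ± 0.23 and -3.19 ± 0.44 at 72 h. The numbers called among the 6 were 4 under solvent and then 3, 3 and 5 with time, and the share of all genes called in these comparisons was 12.7, 21.4, 36.9 and 39.2%.

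**Figure D3:**
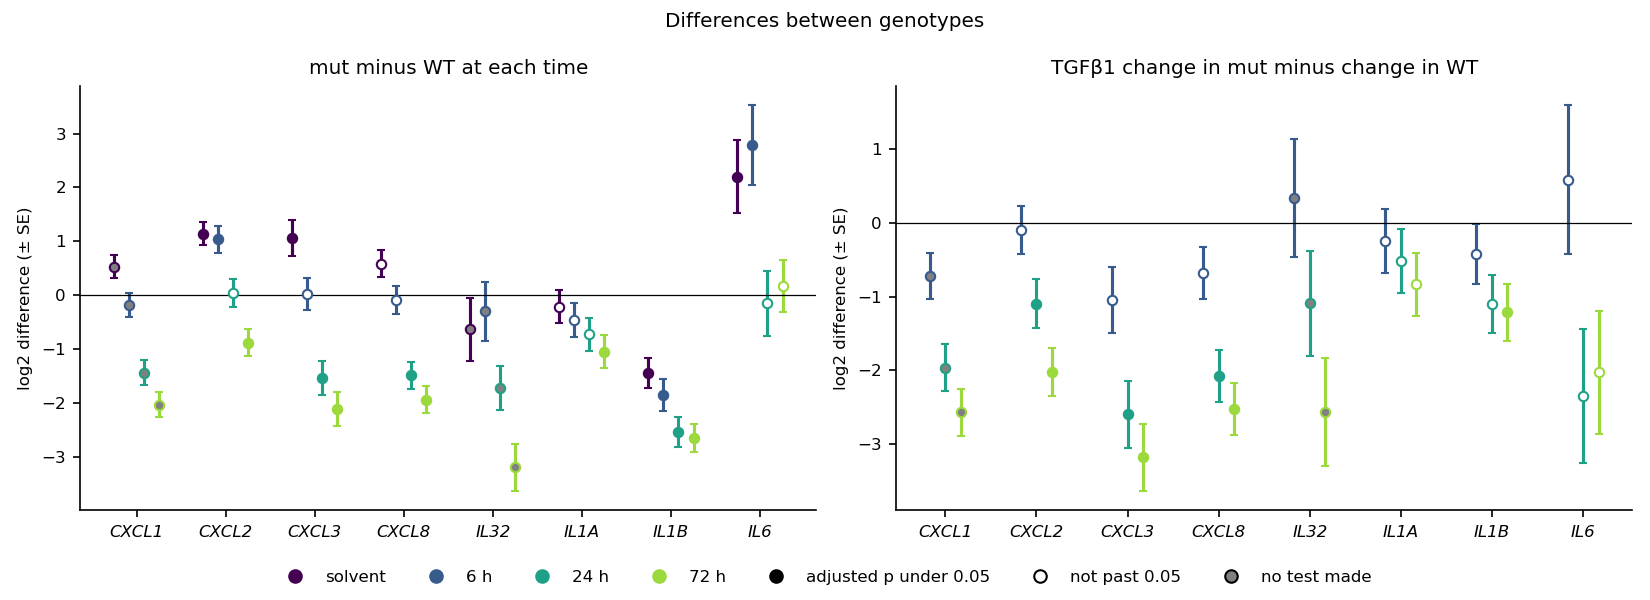
Left, log2 difference of mut from WT (y axis) for each gene (x axis) under solvent and at 6, 24 and 72 h (colours). Right, the TGFβ1 change in mut minus that in WT at 6, 24 and 72 h. Bars are the SE of the fit, filled points passed an adjusted p of 0.05, open points did not and grey points have no test. CXCL1, CXCL2, CXCL3 and CXCL8 move from above zero under solvent to below zero at 72 h on the left, and IL1B is below zero throughout.

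Whether the response to TGFβ1 itself depended on genotype was tested as the difference between the mut and the WT change. At 24 h it was called for CXCL3 (-2.60 ± 0.46, adjusted p = 0.000932), CXCL8 (-2.07 ± 0.35, adjusted p = 0.000703) and CXCL2 (-1.09 ± 0.33, adjusted p = 0.0347). At 72 h the same 3 genes passed, with -3.18 ± 0.46 for CXCL3 (adjusted p = 7.79e-05), -2.52 ± 0.35 for CXCL8 (adjusted p = 5.64e-05) and -2.02 ± 0.33 for CXCL2 (adjusted p = 0.000243). IL1B passed as well (-1.21 ± 0.39, adjusted p = 0.0371). The CXCL2 call at 24 h was lost with summed replications, without the series 27-2, or without 1 of WT solvent 27-1, 2-1 and 2-2, WT 24 h 27-2 and 2-1, mut solvent 1-1, 1-2 and 65-2, and mut 24 h 65-1 and 65-2 (adjusted p = 0.0507 to 0.101). The IL1B call at 72 h was likewise lost by edgeR (adjusted p = 0.0565), with summed replications, in a fit of the 4 groups alone or without 1 of WT solvent 27-1, 2-1 and 2-2, WT 72 h 27-1, 2-1 and 2-2, mut solvent 1-2 and 65-2, and mut 72 h 1-1 and 65-1 (adjusted p = 0.0516 to 0.111 over these). IL1B at 24 h (-1.10 ± 0.39, adjusted p = 0.0734) and IL6 at 24 h (-2.34 ± 0.91, adjusted p = 0.101) passed with the series as a block (adjusted p = 0.0106 and 0.0122). IL1A at 72 h (-0.84 ± 0.43, adjusted p = 0.211) and IL6 at 72 h (-2.02 ± 0.83, adjusted p = 0.111) did so too (adjusted p = 0.00966 and 0.0142). The limit on IL6 from the filter holds here as well, so its values at both times are a description.

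At 6 h 0 of the 6 interactions were called, 1 had an unadjusted p under 0.05, and edgeR and DESeq2 also called 0. The numbers called were thus 0, 3 and 4 of 6, all lower in mut. Among all genes 0.074, 9.65 and 12.3% were called. With the series as a block 5 of the 6 passed at 24 h, with IL6 as a description. That block called 2782 of all 14865 genes at 24 h, against 1434 without it. CXCL1 differed by -0.71 ± 0.31 at 6 h and -1.97 ± 0.32 at 24 h, and IL32 by 0.33 ± 0.80, -1.09 ± 0.71 and -2.56 ± 0.73 at the successive times, with no test.

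Ordered by group mean, WT 72 h was the highest of the 8 groups for every gene except CXCL2, for which mut solvent was the highest. The lowest group was mut 72 h for CXCL1, CXCL3 and CXCL8, WT 6 h for CXCL2 and IL6, mut solvent for IL32 and mut 6 h for IL1A and IL1B. Most neighbours in these orders overlapped in their libraries. Of 56 neighbouring pairs 4 did not overlap, which were WT 24 h above mut 24 h for IL32, WT 24 h above WT solvent for IL1A, and WT 24 h above WT 6 h and WT solvent above mut 72 h for IL1B. No share over all genes stands beside this count, so it describes these orders only.

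Across the 32 libraries the closest companion of CXCL1 among all genes that passed the filter was CXCL8 (Pearson r = 0.95 of log2(CPM + 1)), followed by CXCL3 (r = 0.85) and SP110 (r = 0.80). CXCL3 was most like CXCL8 (r = 0.86), CXCL1 and MYD88 (r = 0.81). CXCL2, although a near copy of CXCL1, correlated with it at only r = 0.41, and its closest genes were IRF1 (r = 0.78), SOCS3 (r = 0.77) and FGR (r = 0.76). IL32 was most like ANOS1 (r = 0.92), CGB8 (r = 0.92) and NAGK (r = 0.91), and IL1A most like CYLD (r = 0.90), CCDC71L (r = 0.88) and VEGFA (r = 0.88). IL1B, the gene with the closest companions, followed CDCP1 (r = 0.97), CLDN12 (r = 0.95) and CSF3 (r = 0.95). For IL6 the highest values were those of TPRA1 (r = 0.73), ZNF549 (r = 0.72) and FBXO32 (r = 0.70). These values describe libraries that share clones, treatments and depth, and the near identity of the CXCL1 and CXCL3 sequences may let their counts share reads.

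The receptors of these ligands were present at very different levels. CXCR2, the receptor of all 4 chemokines, was nearly absent from WT cells. It had 0.126, 0.0502, 0.586 and 0.907 CPM under solvent and at most 0.0457 CPM at 72 h. In mut cells it had 3.72, 4.90, 4.34 and 7.40 CPM under solvent and 0.776, 0.478, 1.49 and 1.39 CPM at 72 h. The groups did not overlap at either time. CXCR2 passed the filter on low counts through the mut libraries, in which it was high, so its comparison between genotypes is a description. Under solvent that difference was 4.25 ± 0.65, and in mut cells CXCR2 fell with TGFβ1 by 2.45 ± 0.40 at 72 h (adjusted p = 3.92e-05). CXCR1, the second receptor of CXCL8, stood at 0.853 to 1.49 CPM in WT solvent and 1.19 to 1.44 CPM in WT 72 h libraries. In mut cells CXCR1 fell from between 0.988 and 1.77 CPM to between 0.294 and 0.665 CPM (-1.58 ± 0.35, adjusted p = 0.00139), and its change differed between genotypes (-1.69 ± 0.45, adjusted p = 0.0146).

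IL1R1, the signalling receptor of IL-1α and IL-1β, averaged 31.2 CPM for WT and 45.4 CPM for mut libraries under solvent (0.56 ± 0.12, adjusted p = 0.00135), and no change with TGFβ1 at 72 h passed in either genotype. The decoy receptor IL1R2 was at most 1.19 CPM in any library. IL6R fell in both genotypes, from 51.5 to 17.3 CPM in WT (-1.56 ± 0.13, adjusted p = 1.12e-10) and from 82.1 to 38.5 CPM in mut cells (-1.12 ± 0.11, adjusted p = 1.42e-08). IL6ST, the shared signal transducer, was the most abundant of these 6 receptor genes, with at least 202 CPM in every library. Thus the genes for the receptors IL1R1 and IL6R were called higher in mut cells under solvent and at 72 h. CXCR2 was also higher there, as a description. The IL1R1 call at 72 h was lost with TMM factors (adjusted p = 0.0531) and by edgeR (adjusted p = 0.0529).

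**Figure D4:**
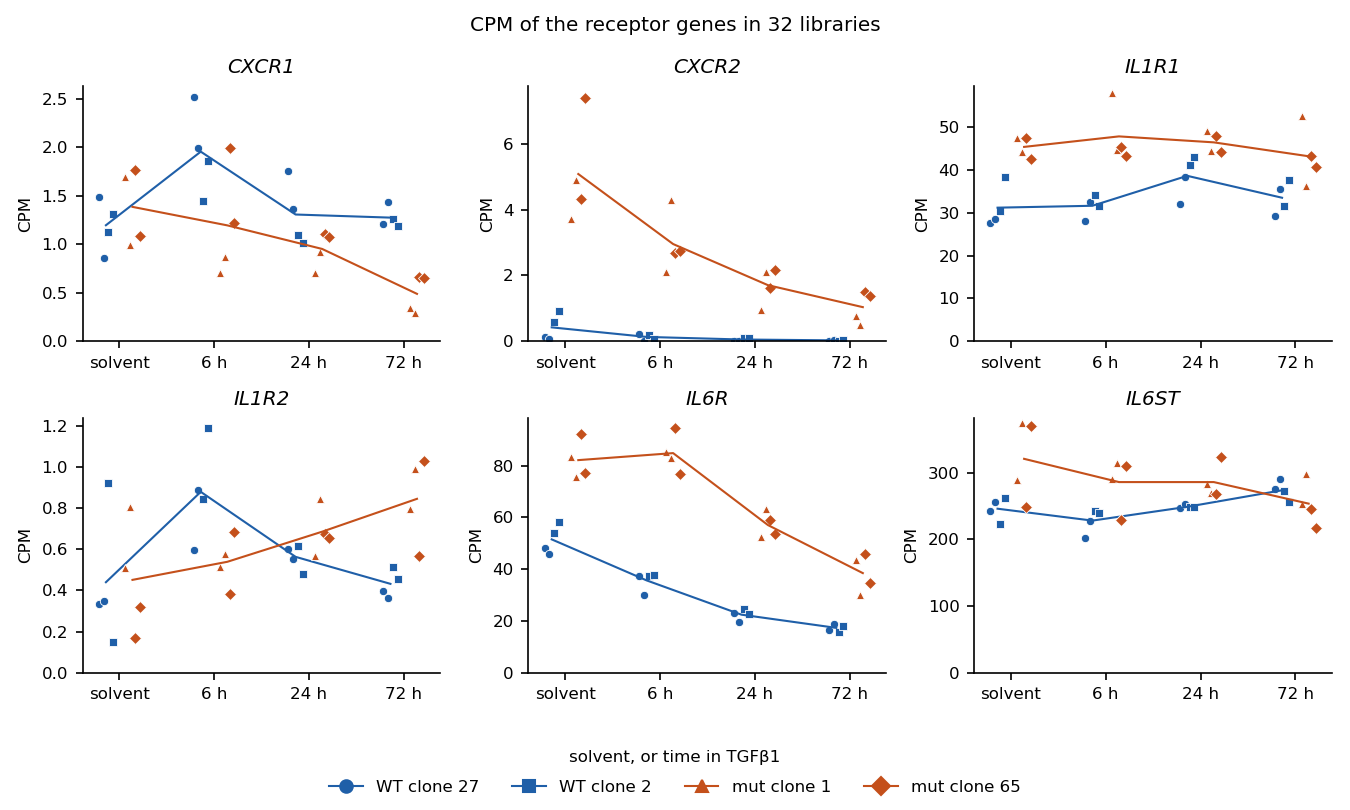
Level in CPM (y axis, linear, from 0) of 6 receptor genes in each of the 32 libraries, under solvent and after 6, 24 and 72 h of TGFβ1 (x axis). Point shapes give the clones, colours the genotype and lines the group means. CXCR2 is between 3.72 and 7.40 CPM in mut solvent libraries and under 1 CPM in all WT libraries, and IL6R falls in both genotypes.

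The wider pathway was read from 141 listed genes, of which 125 were in the table and 107 were tested. In WT cells at 72 h 34 of the 107 rose and 27 fell (57% called), and in mut cells 11 rose and 24 fell (32.7%). The shares of all genes called were 52.2% and 24.1%, so the WT share of the 107 is near that background, against which the counts of each list below are also to be read. With TMM factors the split was 43 higher and 13 lower in WT and 13 higher and 19 lower in mut cells. Between the genotypes' changes at 72 h 21 differed (19.6%, against 12.3% of all genes), 20 of them lower in mut and 1 higher. The median of the 107 was -0.15 in this comparison, and that of all genes was 0.10.

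Of 18 tested NF-κB pathway genes, 7 rose and 4 fell in WT cells at 72 h (9 and 2 with TMM factors) and 0 rose and 4 fell in mut cells. These shares are near the 52.2% and 24.1% of all genes. For the difference of the changes, called for 12.3% of all genes, 9 of the 18 were lower in mut and 0 higher, with a list median of -0.29. TNFAIP3, a feedback inhibitor of NF-κB, rose in WT cells by 0.65 ± 0.22 (adjusted p = 0.0127), from 24.8 to 40.3 CPM, and differed by -1.004 ± 0.32 between genotypes (adjusted p = 0.0383). NFKBIZ, a co-factor for IL6 and other secondary response genes, fell in mut cells from 12.8 to 6.59 CPM (-0.95 ± 0.13, adjusted p = 3.20e-06), and the difference of its changes was -1.06 ± 0.17 (adjusted p = 0.000271). RELB rose in WT cells (0.49 ± 0.18, adjusted p = 0.0212). BIRC3 fell in WT cells from 99.7 to 46.5 CPM (-1.12 ± 0.19, adjusted p = 1.43e-05) and in mut cells from 179 to 72.5 CPM (-1.29 ± 0.18, adjusted p = 3.55e-06). With the series as a block 10 rather than 4 of the 18 fell in mut cells. Among all 14865 genes 3401 rather than 2423 were lower under that block.

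Of 17 tested genes for IL-1 receptors and signalling, 3 rose and 2 fell in WT cells at 72 h, and in mut cells 1 rose and 1 fell. IRAK2, a kinase of the IL-1 receptor complex, rose in WT cells from 7.17 to 16.2 CPM (1.20 ± 0.18, adjusted p = 4.34e-06) and was 8.32 and 7.14 CPM in mut cells (-0.14 ± 0.20, adjusted p = 0.657). MYD88 rose in WT cells by 0.53 ± 0.06 (adjusted p = 4.27e-08) and was 43.5 and 40.7 CPM in mut cells (adjusted p = 0.288). The changes of both differed between genotypes, with -1.34 ± 0.27 for IRAK2 (adjusted p = 0.00181) and -0.63 ± 0.09 for MYD88 (adjusted p = 5.64e-05). IRAK4 fell in WT cells (-0.28 ± 0.09, adjusted p = 0.0138) but not with TMM factors (adjusted p = 0.289), under which 6 of the 17 rose and 0 fell.

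**Figure D5:**
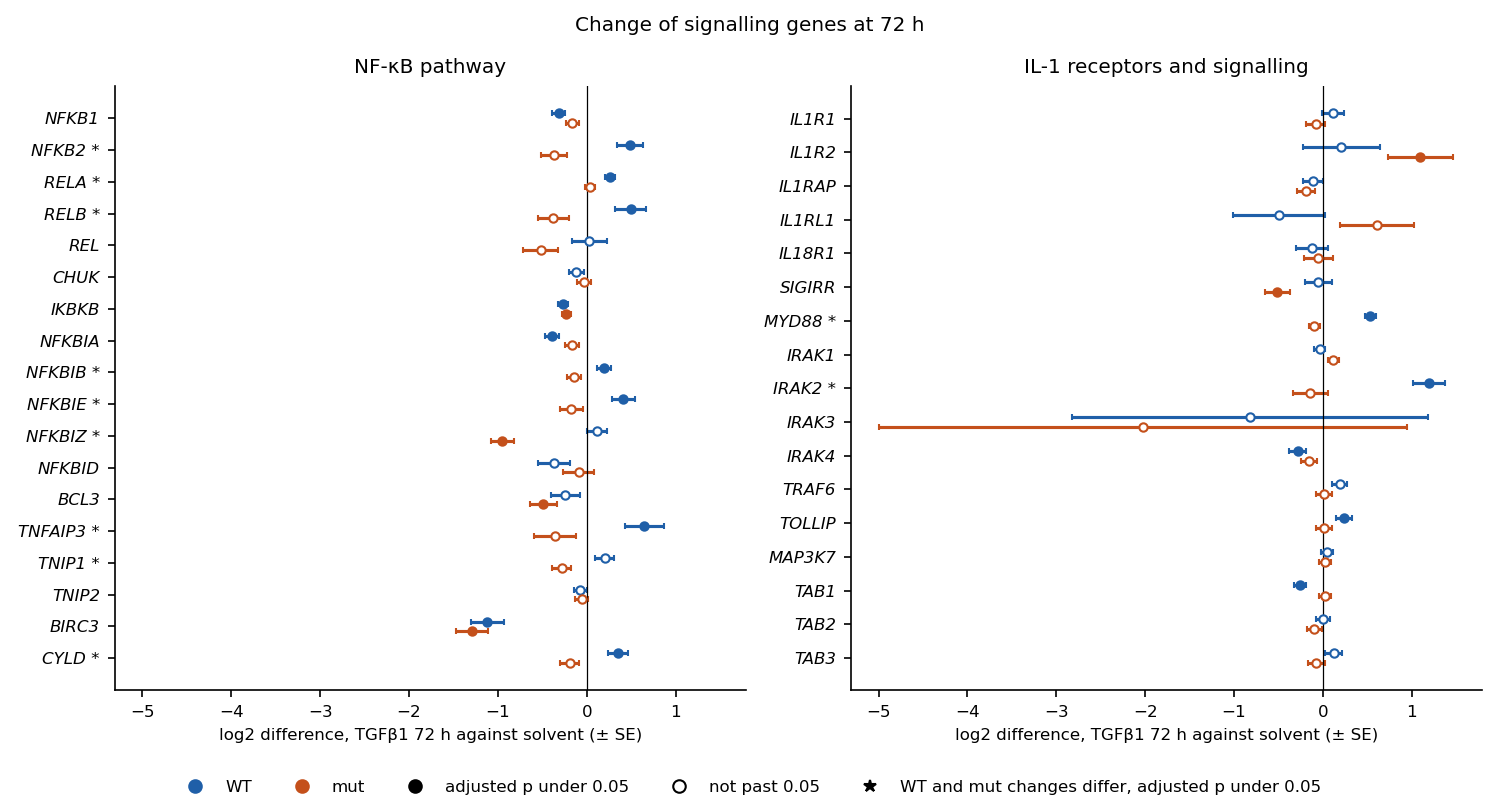
Log2 difference of TGFβ1 72 h from solvent (x axis) for the tested genes of 2 lists, NF-κB pathway (18 genes) and IL-1 receptors and signalling (17 genes), in WT (blue) and mut (orange) cells, with SE bars. Filled points passed an adjusted p of 0.05, and an asterisk marks genes whose changes differed between genotypes. The asterisk falls on 9 NF-κB genes, on MYD88 and on IRAK2, each with the mut point left of the WT point.

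Among other ligands of the IL-1 family, IL1RN, the natural receptor antagonist of IL-1, fell in WT cells from 14.4 to 1.19 CPM (-3.54 ± 0.67, adjusted p = 7.10e-05) and in mut cells from 5.49 to 1.26 CPM (-2.13 ± 0.68, adjusted p = 0.0217). IL18 rose slightly in WT cells (0.25 ± 0.09, adjusted p = 0.0249). In this list of 3 tested genes 1 rose and 2 fell in WT and 1 fell in mut cells. Of 10 genes for IL-1 processing and pyroptosis, 4 rose and 2 fell in WT cells (4 and 1 with TMM factors) and 4 rose and 3 fell in mut cells (4 and 1). NLRP3, an inflammasome sensor, rose from 6.87 to 21.0 CPM in WT (1.63 ± 0.16, adjusted p = 4.64e-09) and from 2.16 to 4.73 CPM in mut cells (1.20 ± 0.26, adjusted p = 0.00119). NLRP1 rose in WT cells by 1.67 ± 0.34 (adjusted p = 0.000153). CASP1, the protease that matures IL-1β, fell from 42.4 to 19.7 CPM in WT (-1.13 ± 0.10, adjusted p = 6.66e-10) and from 48.4 to 31.4 CPM in mut cells (-0.62 ± 0.09, adjusted p = 7.72e-06). Its change was the 1 listed change that was higher in mut at 72 h (0.50 ± 0.14, adjusted p = 0.0145).

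In the IL-6 family and its signalling genes, 5 of 14 rose and 4 fell in WT cells (6 and 3 with TMM factors), and 2 rose and 7 fell in mut cells (3 and 6). IL11, a relative of IL6 induced by TGFβ, rose from 1.82 to 18.2 CPM in WT (3.40 ± 0.50, adjusted p = 2.42e-06) and from 1.17 to 7.46 CPM in mut cells (2.75 ± 0.62, adjusted p = 0.00164). SOCS3, the STAT3-induced feedback inhibitor, rose in WT cells (1.10 ± 0.30, adjusted p = 0.00299) and fell in mut cells (-1.15 ± 0.26, adjusted p = 0.00151), and these changes differed by -2.25 ± 0.40 (adjusted p = 0.000545). OSMR, a receptor of this family, differed by -0.56 ± 0.12 (adjusted p = 0.00262). In all 5 of the 14 had a lower change in mut.

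Of the 6 other tested CXC chemokines 2 rose and 1 fell in WT cells at 72 h. PPBP and PF4, platelet chemokine genes of the same cluster on chromosome 4 that were chosen after their values were seen, went from at most 0.0901 to between 0.566 and 1.23 CPM and from at most 0.150 to between 0.220 and 0.503 CPM in WT cells. In mut cells PPBP was at most 0.0447 CPM and PF4 at most 0.0898 CPM. Both genes passed the filter on low counts through the WT TGFβ1 libraries in which they were high, so their values are a description. CXCL16 fell in both genotypes (-0.69 ± 0.23, adjusted p = 0.0111 in WT, and -0.79 ± 0.20, adjusted p = 0.00494 in mut cells), although the WT fall was not called by edgeR (adjusted p = 0.0519). CCL20 was the 1 of 3 other chemokines called in WT cells (0.57 ± 0.21, adjusted p = 0.0254). Of 6 chemokine receptors 2 rose and 2 fell in WT (2 and 0 with TMM factors) and 1 rose and 3 fell in mut cells. CXCR4, the CXCL12 receptor, was higher in mut cells, at 7.66 CPM against 1.30 CPM under solvent (2.70 ± 0.34, adjusted p = 2.12e-06). Its fall in WT cells (-1.27 ± 0.53, adjusted p = 0.0474) was not called with TMM factors (adjusted p = 0.0843), nor was that of CXCR2 (-3.39 ± 1.38). CXCR2 passed the filter on low counts through the mut libraries, so its WT values are a description.

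Among 13 other inflammatory cytokines 5 rose and 1 fell in WT cells (6 and 0 with TMM factors) and 0 rose and 1 fell in mut cells. Apart from CSF3 and IL15, every listed cytokine with a higher WT mean at 72 h than under solvent was under 1 CPM in both groups. TNF, for example, had means of 0.127 and 0.612 CPM, with 2 to 8 counts per WT solvent library. Rises counted from such low levels are a description. CSF3, the granulocyte growth factor that accompanied IL1B most closely among cytokines, rose from 28.7 to 78.1 CPM in WT cells (1.46 ± 0.17, adjusted p = 6.30e-08) and was 14.5 and 14.8 CPM in mut cells, a difference of -1.40 ± 0.28 (adjusted p = 0.00177). IL15 rose in WT cells (0.84 ± 0.19, adjusted p = 0.000637). For the difference of the changes 1 of the 13 was lower in mut cells, and 4 were with the series as a block. Among all 14865 genes 434 were lower, and 941 with that block. Under that block the difference also passed for CCL20, IL1RN, IL6R, HNRNPD and IL15 (adjusted p = 0.00355 to 0.0283). Of 13 listed factors of mRNA decay and stability, not all of which bind AU-rich elements, 4 rose and 7 fell in WT cells and 2 rose and 2 fell in mut cells. With TMM factors 5 rose and 2 fell in WT cells. ZFP36L1 rose in both (0.79 ± 0.10, adjusted p = 8.77e-08 in WT, and 0.81 ± 0.10, adjusted p = 4.23e-07 in mut cells), and ZFP36 fell in both (-0.48 ± 0.09, adjusted p = 5.64e-05, and -0.38 ± 0.08, adjusted p = 0.00138). HNRNPD fell in WT cells (-0.45 ± 0.08, adjusted p = 4.06e-05). ZC3H12A, an endonuclease that degrades IL6 mRNA, was higher in mut cells under solvent (0.75 ± 0.10, adjusted p = 2.95e-06), and the difference of its changes was -0.41 ± 0.13 (adjusted p = 0.0425). Of 4 C/EBP factors 0 rose and 2 fell in WT (1 and 2 with TMM factors) and 1 fell in mut cells. CEBPD fell in both (-1.42 ± 0.19, adjusted p = 5.84e-07, and -1.17 ± 0.16, adjusted p = 4.79e-06), and CEBPA fell in WT cells (-0.98 ± 0.27, adjusted p = 0.00353).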

How the data were processed

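Gene-level counts in the table the authors deposited were made from TruSeq (unstranded) paired-end reads of 32 libraries, trimmed with Trimmomatic and aligned with STAR to GRCh38. Tool versions and the counting program's options are not given in the sources used here. Every row has at least 4 counts over all libraries. Totals of 39702412 to 54651906 counts set the precision given with each level, and floors cover counting error only. GENCODE release 44 named 17763 of the 17788 identifiers.

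The test was limma-voom (limma 3.58.1, R 4.3.3) on library-size scaled counts of 14865 genes kept by filterByExpr (count minimum 10, total 15), with 1 term per group and 13 comparisons, each adjusted by the Benjamini-Hochberg method over all genes tested. Changes of the composition scaling (TMM factors), edgeR 4.0.16 (quasi-likelihood), DESeq2 1.42.0, filters, blocks, summed replications and left-out libraries were tried, and the fits were tested on simulated data. No pair of libraries of a group agreed within sampling noise. The study describes the replications as independent biological replicates and the cultures as separate plates, and p-values measure the spread between such libraries of 2 clones per genotype.

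The members and lists were chosen with earlier results of these data known. Named genes are the members, their receptors, JUNB, the 3 genes most correlated with each member over the libraries, and, per list, up to 3 called in WT cells at 72 h and up to 2 called for the difference of changes at 72 h, by size of change and with a mean of at least 1 CPM. Libraries of a series (1 clone in 1 replication) share the clone by label, and their deviations from group means correlated at 0.303 on average (48 pairs, 0.0283 to 0.673), against 0.0184 for the same clone in the other replication. Coding-sequence identity (Biopython 1.88) stands in for protein identity, which was not analysed here.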

Additional observations from a re-analysis of the deposited data

Results flagged for a closer look

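In 64 groups of 4 libraries examined (8 genes in 8 groups), 2 libraries stood apart from the other 3 by more than Dixon's 95% critical value for 4 samples, a test that by chance marks a small share of groups. CXCL2 was 6.73 CPM in the first replication of clone 65 under solvent, below the other mut solvent libraries (11.2 to 12.03 CPM, ratio 0.875). CXCL8 was 10.6 CPM in the first replication of clone 1 at 6 h, below the other mut libraries at that time (13.4 to 13.9 CPM, ratio 0.862).

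The response to TGFβ1 differed between the genotypes by its own test (limma-voom, adjusted over all genes) for 3 genes at 24 h and 4 at 72 h. The log2 change in mut minus that in WT cells was -1.09 for CXCL2, -2.60 for CXCL3 and -2.07 for CXCL8 at 24 h. It was -2.02 for CXCL2, -3.18 for CXCL3, -2.52 for CXCL8 and -1.21 for IL1B at 72 h.

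For CXCL1 the 4 series of WT cells all moved up and the 4 series of mut cells all moved down, with differences of -1.97 at 24 h and -2.56 at 72 h. This difference was not tested, since CXCL1 was chosen for it.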

How the results depend on the processing

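Of 37 called differences among 78 tested, 29 were called under every alternative run for them and 0 changed direction in any. Of the 29, 8 (CXCL3 and IL6) were not run with a mean count of at least 50, a filter that removes both genes. The differences of CXCL1 and IL32 moved by less than 1 SD within groups (0.332 and 0.624 on the log2 scale) under each alternative. The number of genes called of 6 moved by over 1.5 times as follows, and the cause was not tested. With the replicate block by series it was 1 in WT at 6 h, 5 in WT at 24 h, 2 in mut at 6 h and 5 for the interaction at 24 h. In these comparisons that block called 3844, 8858, 2453 and 2782 of all 14865 genes, against 2526, 7752, 1041 and 1434 without it. The number called of the 6 was 0 in mut at 6 h by edgeR, by DESeq2, with summed replications and with the groups alone. In WT at 72 h it was 3 with a mean count of at least 50, where CXCL3 and IL6 are not tested, or without the series 27-2, and in mut against WT under solvent it was 2 with that filter or with summed replications. Leaving out single libraries gave 3 to 5 in WT at 72 h, 0 to 2 in mut at 6 h and 2 to 4 in mut against WT under solvent. The block by series changed no member's call beyond those given beside the results.

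Differences that changed sign were called under neither setting. CXCL2 in WT at 24 h was 0.002915 by DESeq2. CXCL2 in mut against WT at 24 h was -0.04306 with TMM factors, -0.06119 by edgeR, -0.05498 by DESeq2 and -0.06905 without the series 1-2. CXCL3 in mut against WT at 6 h was -0.07075 without the series 27-2. CXCL8 in WT at 6 h was 0.06864 with TMM factors, 0.0108 by edgeR, 0.01715 by DESeq2 and 0.07703 without the series 27-2, and IL1A there was 0.002713 by DESeq2. In mut cells IL1A at 24 h was 0.0606 with TMM factors and 0.1481 without the series 1-2, and at 72 h 0.004813 with TMM factors, 0.07078 by edgeR and 0.07142 by DESeq2. IL1B in mut cells at 24 h was 0.06846 with TMM factors, 0.06179 by edgeR, 0.07307 by DESeq2 and 0.01898 without the series 1-2, and at 72 h -0.2411 without that series. IL6 in mut cells was 0.0707 at 6 h without the series 1-2, and at 72 h -0.01741 with summed replications and -0.2531 without the series 1-2. IL6 in mut against WT at 72 h was -0.1154 by edgeR, -0.1294 by DESeq2 and -0.08866 without the series 1-2.

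Leaving out single libraries gave ranges through zero. These were -0.09705 to 0.1909 for CXCL2 and -0.6578 to 0.4615 for IL6 in mut against WT at 24 h, -0.2982 to 0.06632 for the CXCL2 interaction at 6 h, and -0.1398 to 0.1562 for CXCL3 in mut against WT at 6 h. In WT at 6 h they were -0.1642 to 0.2171 for CXCL8, -0.2 to 0.0201 for IL1A and -0.08794 to 0.32 for IL1B. In mut cells they were -0.3346 to 0.1864 (24 h) and -0.4245 to 0.1515 (72 h) for IL1A, -0.1471 to 0.1284 (24 h) and -0.2963 to 0.3295 (72 h) for IL1B, and -0.2763 to 0.1551 (6 h) and -0.2545 to 0.2398 (72 h) for IL6. In mut against WT they were -0.4194 to 0.1015 for IL1A under solvent and -0.1751 to 0.6278 for IL6 at 72 h. Counts of 2 to 8 per WT solvent library limit IL6.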
